A study of Mus musculus with 18 samples.

Results

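Hox genes encode homeodomain transcription factors that set position along the body axis in the embryo. They lie in 4 clusters, HOXA to HOXD, and members with the same number in different clusters are paralogs that arose by duplication of an ancestral cluster. Low numbers are used toward the head and early, high numbers toward the tail and in distal limbs and later, and many adult cells, fibroblasts of different body sites among them, keep a site-specific combination of active Hox genes. The 39 genes of these clusters were followed here in RNA sequencing of 2 mouse cancer cell lines, each grown alone or recovered from spheroids shared with fibroblasts. The genes were all symbols in both count tables that read Hoxa, Hoxb, Hoxc or Hoxd followed by digits only, in any letter case. This gave 39 of 24447 shared symbols, of which 11 were HOXA genes (chromosome 6), 10 HOXB (chromosome 11), 9 HOXC (chromosome 15) and 9 HOXD (chromosome 2). Antisense names were left out, and the rule uses symbols only, though it was set with earlier results of these data known.

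The first line, 168FARN, is a mouse breast cancer line that was combined with cancer-associated fibroblasts (MMTV-CAF) from tumours of MMTV-PyMT mice, in which the mouse mammary tumour virus promoter drives an oncogene of polyoma virus. The second, LLC1, is the mouse Lewis lung carcinoma line and was combined with wound healing fibroblasts from the dorsal wound at day 10. Each line had 3 groups of 3 libraries. In the group called alone no fibroblasts were added, in the group called WT the fibroblasts carried the control guide sgNS, and in the group called sgPrrx1 the fibroblasts had lost Prrx1, a homeobox gene of mesenchymal cells, by CRISPR/Cas9. Spheroids of GFP-tagged cancer cells with 3 fibroblasts per cancer cell were kept in culture for a week, and per the study's methods the GFP-positive cells were sorted before RNA extraction. The tagged cancer cells are shared by all groups of a line, and the labels do not say that replicates were separate cultures, so the p-values measure only the spread between these libraries. Because the fibroblasts and not the cancer cells carried the deletion, the Prrx1 level of sorted cancer cells says nothing of how well it worked. Its mean was 88.2, 128.6 and 112.1 CPM (counts per 1000000 counts of the scaled library) in 168FARN alone, WT and sgPrrx1 and 206, 218 and 177 CPM in LLC1, where the sgPrrx1 libraries had 204.0, 214.8 and 113.5 CPM.

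Total counts ran from 48315037 to 68933002 per library in 168FARN and from 66129117 to 103997557 in LLC1. The library LLC1 sgPrrx1 replicate 3 stood apart, with a median correlation of 0.953 with its replicates against 0.975 for the next lowest library of that line. Most counts of LLC1 calls are therefore given with and without this library. The means, sums and shares of LLC1 sgPrrx1 and the values of single line differences include it. In both tables the value 2 was more frequent than the value 1 (2860 against 2071 entries in 168FARN, 2121 against 1818 in LLC1), so a count was not taken as an independent molecule, and intervals and floors cover counting error only. In LLC1 alone the epithelial marker list of 9 genes summed to at most 0.237 CPM, and the 4 lung epithelial genes Nkx2-1, Sftpc, Sftpb and Scgb1a1 had no count in any LLC1 library. In 168FARN alone Krt8 stood at 331 CPM while Epcam and Cdh1 had at most 3 counts in each library. The RNA is bulk, so fewer cells of a type and less RNA per cell cannot be told apart.

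Each line alone carried its own Hox combination. A gene is called detected here when each of the 3 libraries of a group had at least 10 counts, and at the floor when none had more than 3. In LLC1 alone 24 of the 39 genes were detected, namely all 11 HOXA genes, 8 HOXB genes from Hoxb2 to Hoxb9 and the 5 HOXD genes Hoxd3, Hoxd4, Hoxd8, Hoxd9 and Hoxd10. No HOXC gene was detected in LLC1 alone, and 8 of the 9 were at the floor. The exception was Hoxc6, with 9, 10 and 12 counts. In 168FARN alone 14 genes were detected, among them Hoxa2 to Hoxa7 and Hoxa10, then Hoxb3, Hoxb5, Hoxb6, Hoxc6, Hoxd3 and Hoxd4. A further 12 lay between the floor and detection in 168FARN, against 2 in LLC1. Hoxb1 and Hoxd1 had no count in any of the 18 libraries, which allows up to 3 counts in each.

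**Figure D1:**
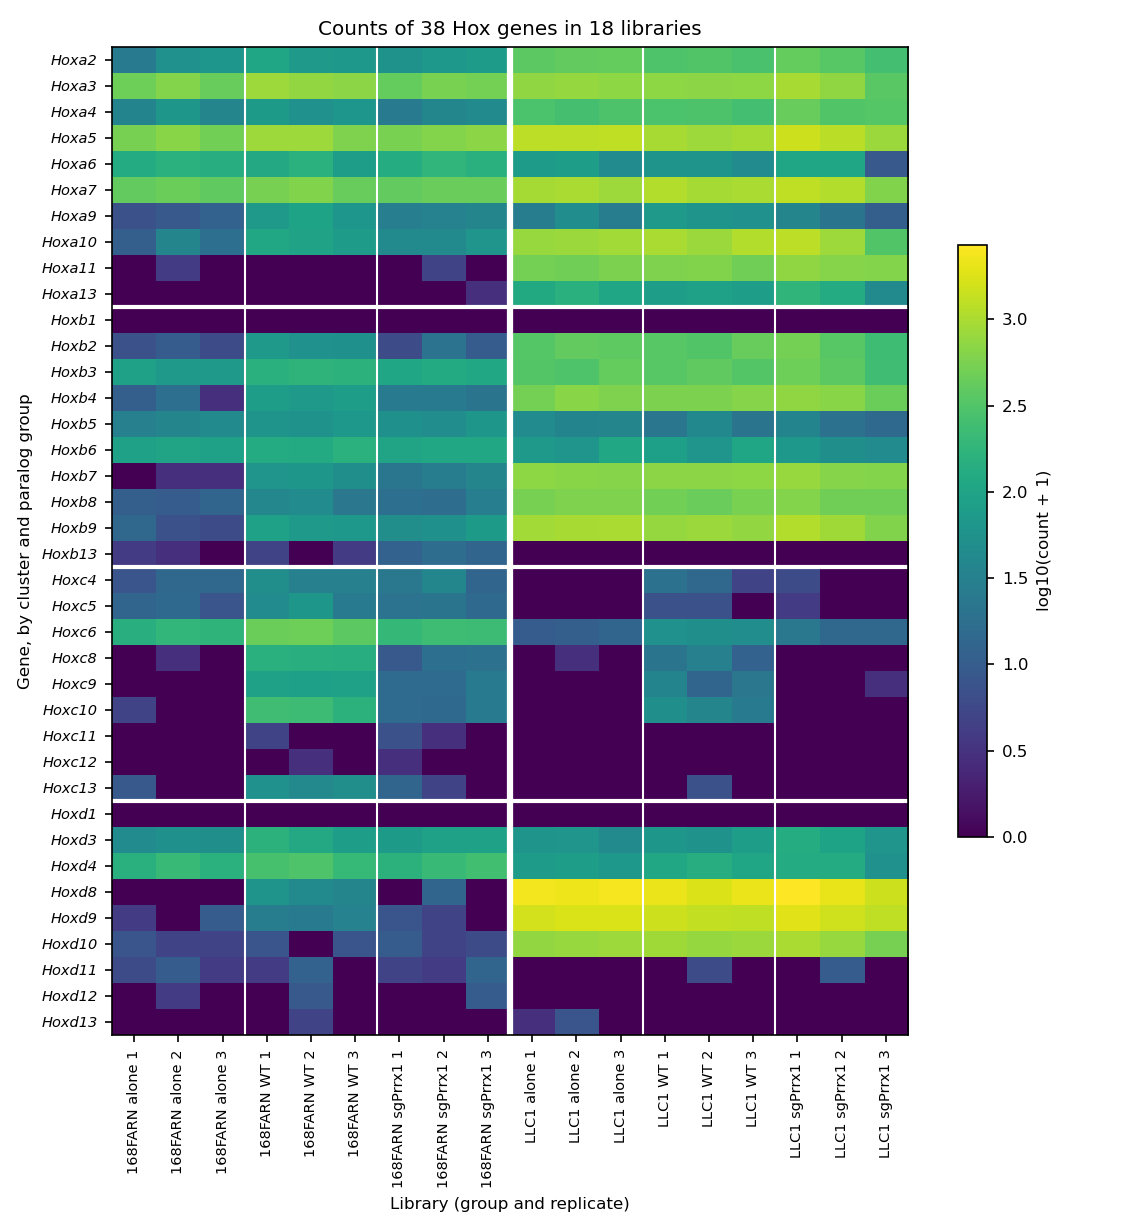
Heat map of log10(count + 1) for 38 genes (rows, ordered by cluster and paralog group) in the 18 libraries (columns, by line, group and replicate). HOXC holds zeros or small counts in both lines alone, apart from Hoxc6 in 168FARN. Hoxc4, Hoxc6, Hoxc8, Hoxc9 and Hoxc10 have larger counts in the 3 WT libraries of each line, while Hoxc11 and Hoxc12 stay near 0.

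Summed over all 39 genes, Hox RNA stood at 49.3 ± 1.80 CPM (SD, n = 3) in 168FARN alone and at 178.8 ± 6.84 CPM in LLC1 alone. HOXA genes made up 74.4% of that sum in 168FARN and 40.0% in LLC1, where HOXD took 34.5%, HOXB 25.4% and HOXC 0.0771%. Genes of paralog groups 9 to 13, the posterior class of 16 genes, took 2.24% of Hox RNA in 168FARN alone (range 2.01 to 2.40 over libraries) and 34.6% in LLC1 alone (33.7 to 35.3). The 15 central genes, groups 4 to 8, took 63.5% in 168FARN and 48.4% in LLC1. Posterior genes thus held a larger share in every LLC1 library than in any 168FARN library.

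To compare genes with each other, CPM was divided by the length of the merged exons (GENCODE vM1). In 168FARN alone the highest level per kilobase was that of Hoxa5, a gene with roles in lung and axial skeleton, at 5.58 ± 0.247 CPM per kb. It was followed by Hoxa7 at 2.73 ± 0.216, without overlap. Lower in the order Hoxa3, Hoxa6, Hoxd4 and Hoxc6 (1.37 to 1.24 CPM per kb) overlapped, each with the next in the order. In LLC1 alone Hoxd8 (10.6 ± 0.626 CPM per kb) and Hoxd9 (9.58 ± 0.523) led and overlapped. Hoxa5 came next at 8.36 ± 0.385, apart from both neighbours, and then Hoxb9 at 4.64 ± 0.300. Of the 23 neighbouring pairs among the detected genes of LLC1, 17 overlapped over their libraries, as did 7 of 13 pairs in 168FARN, so most single ranks are not resolved.

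**Figure D2:**
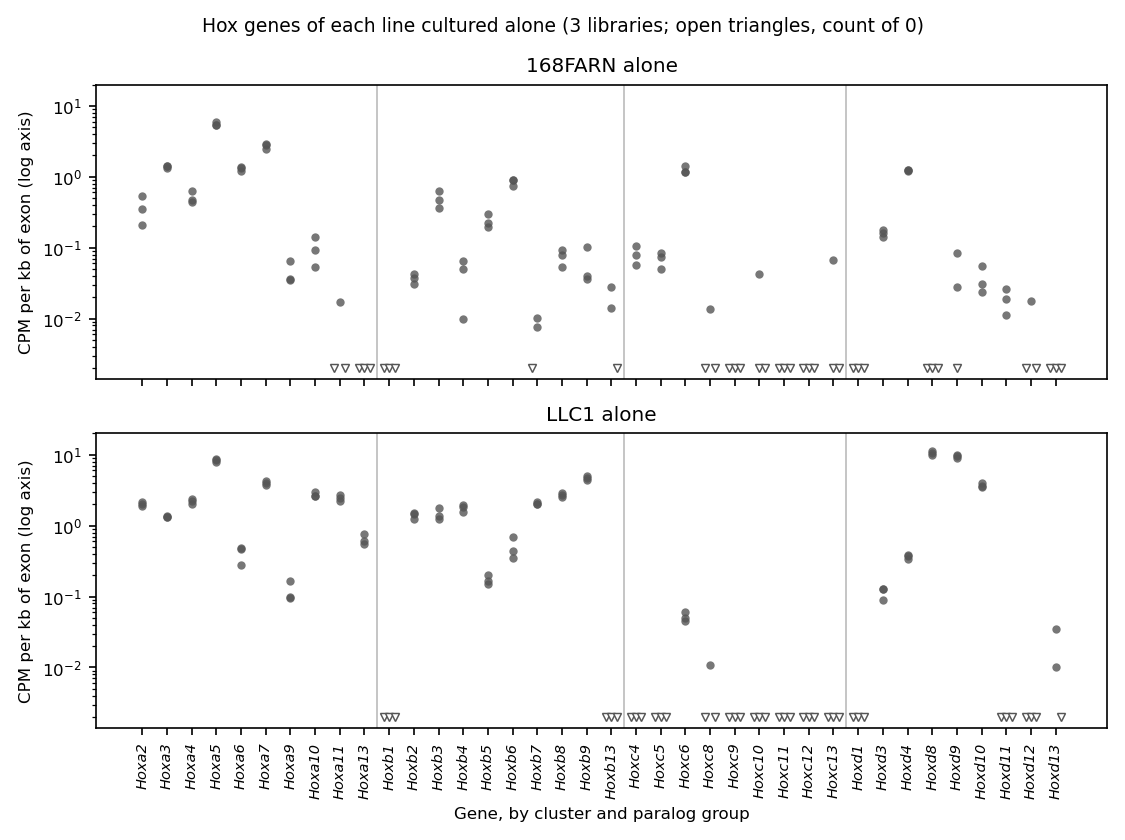
CPM per kilobase of exon (log axis) of 38 Hox genes in 168FARN alone (top) and LLC1 alone (bottom), 1 point per library, with open triangles at the lower edge for counts of 0. LLC1 holds Hoxd8, Hoxd9 and Hoxa5 at the top and zeros through most of HOXC, whereas 168FARN is led by Hoxa5 and Hoxa7.

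The lines were compared in a joint fit of all 18 libraries with edgeR's quasi-likelihood test and Benjamini-Hochberg adjustment over 14369 genes, under which 24 of the 32 Hox genes tested differed between LLC1 alone and 168FARN alone. LLC1 was higher in 18 and lower in 6, against 33.2% of all genes tested higher and 37.7% lower. Genes near 0 in 168FARN alone, such as Hoxa11, Hoxa13, Hoxb7 and Hoxd8, entered the test through libraries where they were high, so their calls were largely set by the filter and the count is no support by itself. The line cannot be told apart from any difference in how the 2 experiments were run. The largest bound was that of Hoxd8, with 2349, 2231 and 2402 counts in LLC1 alone and 0, 0 and 0 in 168FARN alone, at least 514-fold by a floor of 3 counts per library. Its neighbour Hoxd9 had 1575, 1725 and 1706 counts against 3, 0 and 9, and the groups lay far apart. Hoxd10 had 752, 788 and 839 counts against 7, 4 and 4 (log2 difference 6.81 ± 0.39 SE, adjusted p = 4.77e-10). All 3 are genes of the trunk and proximal limb program.

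Posterior HOXA genes were also higher in LLC1. Hoxa11, needed for the forearm, kidney and uterus, had 524, 482 and 561 counts in LLC1 alone and 0, 3 and 0 in 168FARN alone, a ratio of 352 with a counting interval from 120.3 to 1709. Hoxa11os, its antisense partner, had 134, 136 and 152 counts in LLC1 alone, and the kit did not mark strand, so reads of the pair cannot be told apart. Hoxa13, a gene of digits and the urogenital tract, had 121, 151 and 106 counts against 0 in each 168FARN library, at least 27.8-fold. Hoxa10 had 794, 821 and 895 counts against 10, 35 and 17, and Hoxa9 differed less, with 27, 47 and 27 against 6, 8 and 11. None of these groups overlapped.

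In HOXB the genes from Hoxb2 to Hoxb4 and Hoxb7 to Hoxb9 were higher in LLC1. Hoxb7 had 707, 669 and 653 counts in LLC1 alone against 0, 2 and 2 in 168FARN alone (log2 difference 8.42 ± 0.30 SE, adjusted p = 2.31e-12). Hoxb9 had 896, 972 and 992 counts against 13, 6 and 5, and Hoxb4, whose product is known for expanding blood stem cells, 515, 656 and 592 against 10, 17 and 2. Hoxb6 went the other way, with 0.579 times the 168FARN level in LLC1 (adjusted p = 0.0425 by edgeR), and the call did not hold in every alternative. Hoxa2 and Hoxa3 share exon sequence, as do Hoxb7 with Hoxb8 and Hoxd3 with Hoxd4, so reads there could be split. Hoxb5 did not pass the test between the lines (log2 difference -0.36 ± 0.31 SE, adjusted p = 0.310).

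The genes lower in LLC1 alone were Hoxa6, Hoxb6, Hoxd4, Hoxc4, Hoxc5 and Hoxc6. For Hoxc6, a gene with a part in mammary and thoracic development, 168FARN alone had 140, 188 and 170 counts and LLC1 alone 9, 10 and 12 (log2 difference -4.46 ± 0.17 SE, adjusted p = 4.78e-12). Hoxc4 and Hoxc5 had 7 to 14 counts in 168FARN alone and none in LLC1 alone. Hoxa3 stood at like levels, 9.40 ± 0.383 CPM in 168FARN and 9.14 ± 0.218 in LLC1, with overlapping libraries and an edgeR adjusted p = 0.657.

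Promoter sequence was at hand for 22 member symbols with 24 start sites (RefSeq, GRCm38.p6, 250 bases before to 50 after the start), and of the HOXC cluster only Hoxc4 was among them. The 3 printed below belong to Hoxd8 and Hoxd9, the genes at the top of the LLC1 order and near 0 in 168FARN alone, and to Hoxc4, which had no count in LLC1 alone. Hoxd8 lies at chr2:74704365-74704664, Hoxd9 at chr2:74697513-74697812 and Hoxc4 at chr15:103034145-103034444, all on the plus strand. The Hoxd8 and Hoxd9 windows sit at the start of the gene, whereas the Hoxc4 window is at an internal start, inside the gene span of 103018097 to 103036856. Letters run 5′ to 3′ and capitals mark every CG dinucleotide.
Hoxd8: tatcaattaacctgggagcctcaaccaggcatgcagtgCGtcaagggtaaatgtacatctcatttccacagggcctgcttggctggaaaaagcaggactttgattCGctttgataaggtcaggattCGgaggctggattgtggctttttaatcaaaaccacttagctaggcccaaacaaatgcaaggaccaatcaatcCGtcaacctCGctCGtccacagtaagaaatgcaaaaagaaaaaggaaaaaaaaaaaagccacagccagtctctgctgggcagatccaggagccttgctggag
Hoxd9: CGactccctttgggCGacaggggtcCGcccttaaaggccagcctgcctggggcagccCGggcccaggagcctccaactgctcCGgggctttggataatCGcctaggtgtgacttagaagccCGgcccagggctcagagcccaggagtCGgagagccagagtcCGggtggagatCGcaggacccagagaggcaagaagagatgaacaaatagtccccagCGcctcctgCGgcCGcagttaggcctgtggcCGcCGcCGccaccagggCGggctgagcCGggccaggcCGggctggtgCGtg
Hoxc4: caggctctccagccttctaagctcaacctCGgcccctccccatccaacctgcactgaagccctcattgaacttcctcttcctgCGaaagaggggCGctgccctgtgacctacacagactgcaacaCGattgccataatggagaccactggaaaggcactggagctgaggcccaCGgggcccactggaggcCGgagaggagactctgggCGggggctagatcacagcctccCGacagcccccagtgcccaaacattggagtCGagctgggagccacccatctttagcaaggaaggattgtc
The Hoxd8 window held 6 CG dinucleotides, Hoxd9 20 and Hoxc4 9. Over all 24 member windows the median was 14.5 (range 4 to 45), beside 7 over 32851 promoters of the same length. The letters TGATNNAT, a core of sites bound by Hox proteins together with Pbx, were found on either strand in 4 of 24 member windows (16.7%) and in 8.85% of all promoters. The homeodomain core TAATTA was found in 2 (8.33% beside 5.29%), and TATAAA in 4 (16.7% beside 13.6%). None of the 3 motifs was in the Hoxd8, Hoxd9 or Hoxc4 windows. These are matches of letters and not sites.

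In 168FARN most Hox genes tested were higher after coculture with WT fibroblasts. In the edgeR fit of 9 libraries, 23 of 29 Hox genes tested passed between WT and alone, 22 higher and 1 lower, where 33.4% of all genes tested were higher and 30.7% lower. The median log2 difference of the 29 genes was 1.48, beside 0.006 over all 13540 genes tested. In either line, a gene that entered the test only through the group where it was high had to differ, so these counts and medians are no support by themselves, and 10 of the 39 were not tested. The summed level went from 3.60 ± 0.277 to 16.2 ± 1.23 CPM for HOXC, from 4.60 ± 0.676 to 10.9 ± 2.15 for HOXB, from 4.39 ± 0.181 to 7.39 ± 0.138 for HOXD and from 36.7 ± 0.864 to 45.0 ± 2.11 for HOXA (n = 3 each), with no overlap between libraries of the groups in any cluster. These sums were not tested.

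**Figure D3:**
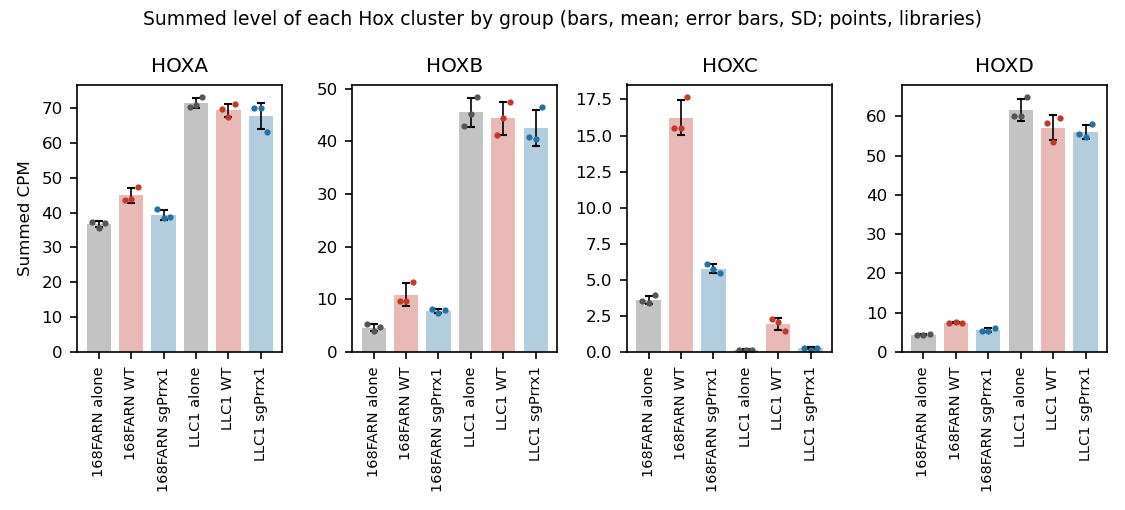
Summed CPM of each cluster (bars, mean of 3 libraries; error bars, SD; points, libraries) by group, with a separate axis from 0 in each panel. HOXC in 168FARN goes from 3.60 CPM alone to 16.2 in WT and 5.76 in sgPrrx1, and LLC1 shows the same order in HOXC at 0.138, 1.92 and 0.234 CPM while its HOXA, HOXB and HOXD bars stay near each other.

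The HOXC genes tested were Hoxc4, Hoxc5, Hoxc6, Hoxc8, Hoxc9, Hoxc10 and Hoxc13, and each was higher in 168FARN WT than alone. Hoxc8, Hoxc9, Hoxc10 and Hoxc13 were at 0 to 8 counts alone and entered the test through coculture libraries, so that this holds for every one was partly set by the filter. DESeq2 did not call Hoxc13 (adjusted p = 0.0597). Hoxc8, a thoracic gene, had 0, 2 and 0 counts alone, 150, 147 and 138 in WT and 8, 17 and 18 in sgPrrx1, and no 2 of these groups overlapped. Its WT to alone ratio was 187 with a counting interval from 51.3 to 1546 (adjusted p = 2.36e-07). Hoxc9, which specifies thoracic identity of motor neurons, had 0, 0 and 0 counts alone, 90, 86 and 92 in WT and 15, 15 and 26 in sgPrrx1. WT was at least 25.9-fold above alone, and the groups were again apart. Hoxc10, a lumbar gene, had 4, 0 and 0 counts alone, 237, 228 and 162 in WT and 15, 14 and 25 in sgPrrx1 (log2 difference 6.94 ± 0.49 SE between WT and alone, adjusted p = 3.35e-07).

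Hoxc6 was the HOXC gene with the highest CPM in every 168FARN group. It had 2.88, 2.93 and 3.50 CPM alone, 6.61, 6.80 and 7.57 in WT and 4.02, 3.91 and 3.84 in sgPrrx1, in 3 separate ranges. WT was 2.25 times alone (log2 difference 1.17 ± 0.10 SE, adjusted p = 1.97e-06). Hoxc13, a hair follicle and nail gene at the far end of the cluster, had 8, 0 and 0 counts alone, 54, 40 and 49 in WT and 12, 4 and 0 in sgPrrx1. Its neighbours Hoxc11 and Hoxc12 had at most 6 counts in any library and were not tested. Hoxc4 (7, 13 and 13 counts alone, 48, 30 and 30 in WT) and Hoxc5 (12, 14 and 7 alone, 45, 65 and 26 in WT) were also higher in WT, by log2 1.48 and 1.79.

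**Figure D4:**
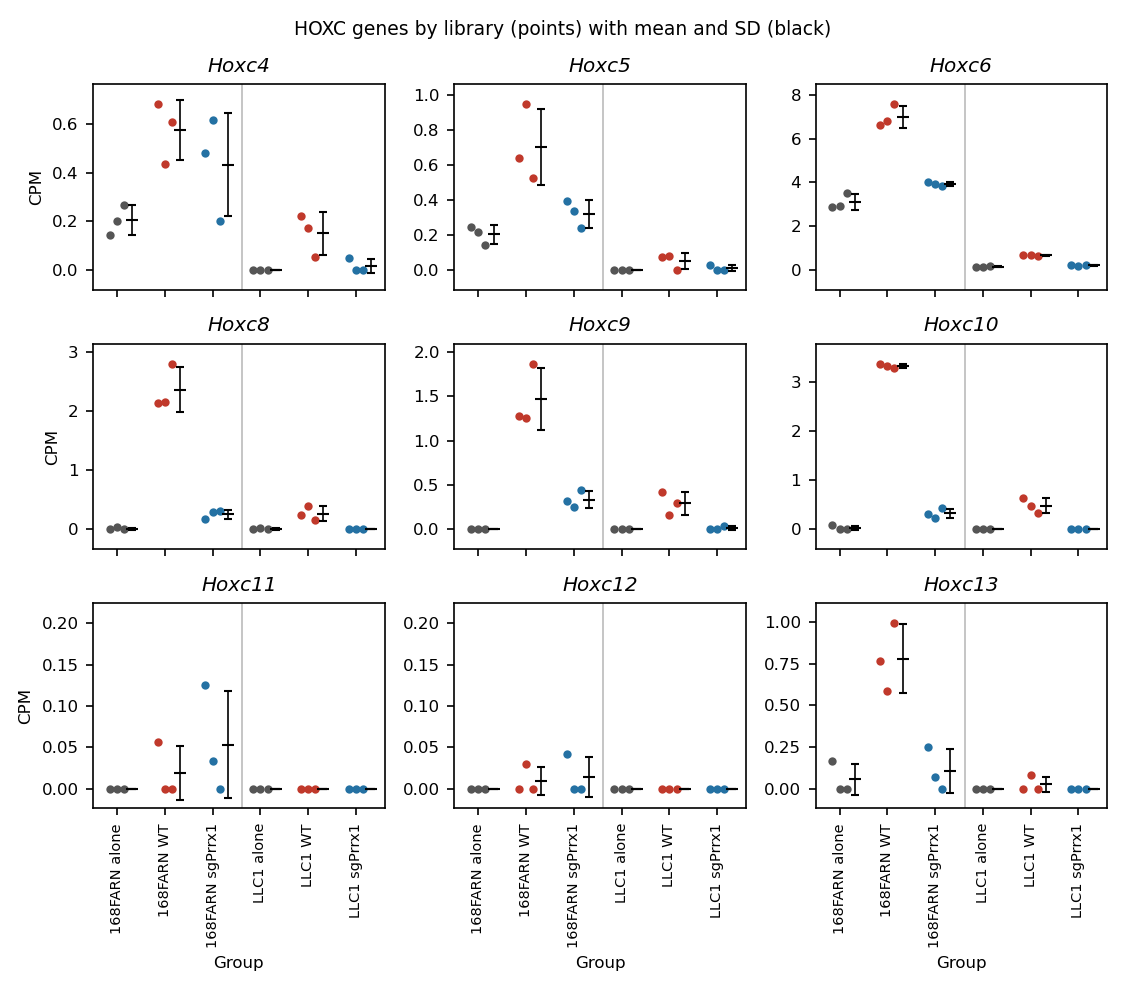
CPM of each HOXC gene in every library (points; grey alone, red WT, blue sgPrrx1) with mean and SD (black bars), 168FARN on the left and LLC1 on the right of each panel. Hoxc8, Hoxc9 and Hoxc10 are near 0 alone and highest in WT in both lines, and in sgPrrx1 they are low in 168FARN and at 0 to 2 counts in LLC1.

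In HOXB 6 of 9 genes tested were higher in 168FARN WT than alone. Hoxb7, a thoracic gene, went from 0, 2 and 2 counts to 61, 65 and 51 (39.4 times in CPM, adjusted p = 2.97e-06) and had 21, 27 and 35 in sgPrrx1. Hoxb9, known for its part in mammary development and breast cancer, went from 13, 6 and 5 to 92, 71 and 67 counts (adjusted p = 2.14e-05) and had 49, 52 and 74 in sgPrrx1. Hoxb2, a hindbrain gene, had 6, 9 and 5 counts alone, 68, 54 and 52 in WT and 5, 19 and 9 in sgPrrx1. For Hoxb2 the alone and sgPrrx1 libraries overlapped, while Hoxb7 and Hoxb9 in sgPrrx1 stayed above every library alone. Hoxb4 went from 10, 17 and 2 to 82, 70 and 80 counts, and Hoxb3 and Hoxb8 were higher in WT by log2 0.86 and 1.49.

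HOXD gave 4 higher genes of 4 tested. Hoxd8, with 0, 0 and 0 counts in 168FARN alone, had 58, 42 and 36 in WT and 0, 12 and 0 in sgPrrx1. WT was at least 12.7-fold above alone (adjusted p = 0.000993), and only 1 library of sgPrrx1 had any count. Hoxd9 had 3, 0 and 9 counts alone, 27, 24 and 32 in WT and 7, 4 and 0 in sgPrrx1, so alone and sgPrrx1 overlapped and WT lay above both. Hoxd3 (2.05 times) and Hoxd4 (1.29 times), 2 genes whose spans overlap, were higher in WT as well. The calls of Hoxd4 and Hoxd9 were lost on leaving out some single libraries. In HOXA the higher genes included Hoxa9 and Hoxa10 by 7.75 and 4.14 times and Hoxa3 and Hoxa5 by 1.32 and 1.15 times. Hoxa9, a gene of blood progenitors and leukaemia, had 6, 8 and 11 counts alone, 70, 96 and 63 in WT and 28, 32 and 35 in sgPrrx1.

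Hoxa6 was the single Hox gene that fell, with 2.67, 2.40 and 2.80 CPM alone, 1.65, 2.25 and 1.64 in WT and 2.77, 2.98 and 2.56 in sgPrrx1. Between WT and alone its log2 difference was -0.50 ± 0.16 SE (adjusted p = 0.0161 by edgeR), and the call was lost without WT replicate 1, WT replicate 3 or alone replicate 3 (adjusted p = 0.0639 at most). The WT libraries lay below all others. Hoxa2, Hoxa4, Hoxa7, Hoxb5, Hoxb6 and Hoxb13 were tested and did not pass, with log2 differences from 0.10 to 0.56. As a result of these shifts the posterior class took 12.9% of Hox RNA in 168FARN WT (range 12.7 to 13.1 over libraries), against 2.24% alone and 6.73% (5.67 to 7.60) in sgPrrx1.

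With sgPrrx1 in place of WT fibroblasts, 6 of the 7 HOXC genes that had been higher in 168FARN WT were lower. Of 29 genes tested, 17 passed between sgPrrx1 and WT, 15 lower and 2 higher, where 33.1% of all genes tested were lower and 26.9% higher. The median log2 difference of the 29 genes was -0.59, beside -0.03 over all genes tested. Hoxc13, Hoxd8 and Hoxd9 entered the test only through WT, so their direction was set by the filter. These counts and this median are therefore no support by themselves. The genes that fell were 6 of 7 HOXC genes, Hoxa3, Hoxa4, Hoxa9, Hoxa10, Hoxb2, Hoxb4, Hoxb7, Hoxd8 and Hoxd9. Of these, Hoxa4, Hoxa10, Hoxb7, Hoxc5, Hoxc13, Hoxd8 and Hoxd9 lost the call in at least 1 alternative, Hoxc13 and Hoxd8 with DESeq2 (adjusted p = 0.167 and 0.194). Hoxc10 fell by 3.35 on the log2 scale (SE 0.32, adjusted p = 4.98e-06) and Hoxc8 by 3.19 (SE 0.30, adjusted p = 4.62e-06). Hoxc9 fell by 2.11, Hoxb2 by 2.24 and Hoxc6 by 0.83, and in each the WT and sgPrrx1 libraries did not overlap.

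Against cells alone, 12 of the 29 genes were higher in 168FARN sgPrrx1 and none was lower in the edgeR fit, where 25.7% of all genes tested were higher and 24.1% lower. An unadjusted p under 0.05 was found for 15, beside 7568 of all 13540 genes tested. Of the 14 genes that were higher in WT and then lower in sgPrrx1, 8 (Hoxa9, Hoxa10, Hoxb4, Hoxb7, Hoxc6, Hoxc8, Hoxc9 and Hoxc10) were still higher than alone, and of these Hoxb4 and Hoxc6 lost that call in at least 1 alternative. The other 6 (Hoxa3, Hoxb2, Hoxc5, Hoxc13, Hoxd8 and Hoxd9) did not pass between sgPrrx1 and alone. The WT libraries enter both changes, so the 2 changes are not independent.

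Not every gene that was higher in 168FARN WT than alone was lower in sgPrrx1. Among those that did not pass between sgPrrx1 and WT were Hoxa5, Hoxb3, Hoxb8, Hoxb9, Hoxc4, Hoxd3 and Hoxd4. Hoxb13 departed from this order in another way, being higher in sgPrrx1 only. Hoxb9 stood at 0.155 ± 0.0976 CPM alone, 1.23 ± 0.173 in WT and 1.05 ± 0.193 in sgPrrx1 (n = 3), and the log2 difference of -0.23 ± 0.27 SE between sgPrrx1 and WT did not pass (adjusted p = 0.486). Hoxb13, a prostate and tail gene, had 3, 2 and 0 counts alone, 4, 0 and 3 in WT and 11, 16 and 12 in sgPrrx1. It was higher in sgPrrx1 than in both other groups (adjusted p = 0.0102 against WT and 0.0114 against alone), without overlap but at no more than 16 counts per library, and it entered the test only through sgPrrx1. With no filter beyond 1 count both calls were lost (adjusted p = 0.0557 and 0.0510).

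**Figure D5:**
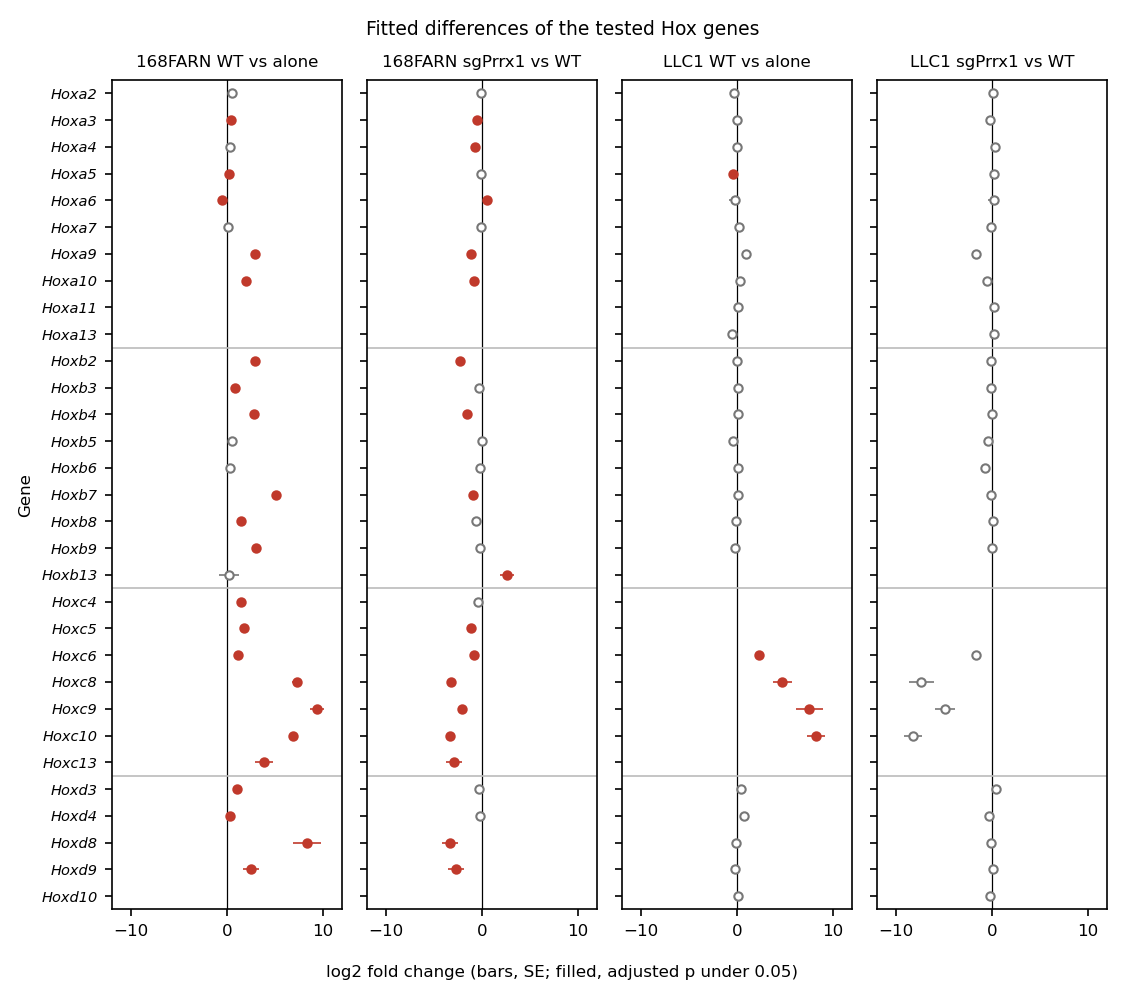
Fitted log2 fold changes with SE of tested Hox genes, 1 left out, in 4 comparisons, red where the adjusted p was under 0.05 and open grey where it was not. In 168FARN most red points lie right of 0 for WT against alone and left of 0 for sgPrrx1 against WT; in LLC1 only HOXC genes and Hoxa5 are red, and values against groups at 0 counts depend on the prior count of the fit and are not bounds.

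In LLC1 most genes that were already on alone did not pass between WT and alone, and the calls with all libraries were HOXC genes and Hoxa5. With all 9 libraries, 5 of 28 genes tested passed between WT and alone, 4 higher and 1 lower, where 4.25% of all genes tested were higher and 4.58% lower. The 4 higher were Hoxc6, Hoxc8, Hoxc9 and Hoxc10. The last 3 had 0 to 2 counts in the other groups and entered the test only through WT, so their being called was largely set by the filter. The median log2 difference of the 28 genes was 0.07, beside -0.02 over all 12873 genes tested. Without LLC1 sgPrrx1 replicate 3, which enters this comparison only through the shared spread, 11 of 29 passed, 7 higher and 4 lower, where 22.0% of all genes were higher and 22.2% lower. Outside HOXC the added calls included Hoxa9 and Hoxd4, higher by log2 0.91 and 0.70, and Hoxa2 and Hoxd9, lower (log2 differences -0.32 and -0.24). Leaving out any 1 library of LLC1 WT or LLC1 alone left 1 or 2 calls, and Hoxc6 was the single Hox gene called in every alternative that tested it.

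Hoxc6 had 9, 10 and 12 counts in LLC1 alone, 53, 51 and 47 in WT and 23, 13 and 13 in sgPrrx1. WT lay above both other groups, which overlapped in CPM (0.154 at most alone, 0.153 at least in sgPrrx1), and was higher than alone by log2 2.32 ± 0.29 SE (adjusted p = 0.00411). Hoxc10 had no count in any library alone or in sgPrrx1 and 51, 36 and 24 counts in WT, at least 12.7-fold above alone (adjusted p = 0.0167). Hoxc9 had 0, 0 and 0 counts alone, 34, 12 and 22 in WT and 0, 0 and 2 in sgPrrx1, at least 7.78-fold above alone (adjusted p = 0.0246). Hoxc8 had 0, 2 and 0, then 20, 30 and 11, then 0, 0 and 0 counts in the same order of groups. Its WT to alone ratio of 31.7 had a counting interval from 8.41 to 267.7 (adjusted p = 0.0344). For these 3 genes WT was apart from both other groups, while alone and sgPrrx1 overlapped.

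Hoxc4 and Hoxc5 also had counts in LLC1 WT and none alone without passing the filter. Hoxc4 had 18, 13 and 4 counts in WT and 5, 0 and 0 in sgPrrx1. Hoxc5 had 6, 6 and 0 in WT and 3, 0 and 0 in sgPrrx1. Without LLC1 sgPrrx1 replicate 3, Hoxc4 was tested and passed (adjusted p = 0.0190 by edgeR). Hoxc11 and Hoxc12 had no count in any LLC1 library.

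Hoxa5 was the gene that fell in LLC1 WT, with 15.6, 15.0 and 16.5 CPM alone, 11.8, 11.3 and 12.5 in WT and 14.1, 14.0 and 13.9 in sgPrrx1. Its log2 difference was -0.40 ± 0.09 SE (adjusted p = 0.0257), without overlap, and in 168FARN the same gene was higher in WT. For the genes at the top of the LLC1 order the values moved little. Hoxd8 stood at 29.2 ± 1.72, 26.4 ± 2.81 and 25.0 ± 0.660 CPM alone, in WT and in sgPrrx1, and Hoxd9 at 20.9 ± 1.14, 17.6 ± 0.839 and 19.4 ± 2.16 (n = 3 each). Neither passed with all libraries, and Hoxd9 did without LLC1 sgPrrx1 replicate 3 (adjusted p = 0.0142, WT against alone). The posterior class took 34.6%, 35.4% and 34.7% of Hox RNA in LLC1 alone, WT and sgPrrx1.

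Between sgPrrx1 and WT none of the 28 Hox genes passed in LLC1 by edgeR, where 0.0% of all genes tested were higher and 0.0544% lower. At an unadjusted p under 0.05 there were 6, beside 1545 of all 12873 genes tested. DESeq2 called 5, beside 255 higher and 246 lower of 12860 genes. Without LLC1 sgPrrx1 replicate 3, 5 of 29 passed, and all were lower (Hoxa9, Hoxc6, Hoxc8, Hoxc9 and Hoxc10), where 2.94% of all genes were higher and 2.75% lower. Hoxc8, Hoxc9 and Hoxc10 entered the test only through WT, so their direction was set by the filter and is no support by itself. Hoxa9 had 68, 59 and 54 counts in LLC1 WT and 35, 20 and 10 in sgPrrx1. Hoxc6 had a log2 difference of -1.73 ± 0.27 SE with all libraries (adjusted p = 0.101) and passed without that library (adjusted p = 0.0350).

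Between LLC1 sgPrrx1 and LLC1 alone 0 of 28 passed by edgeR, where 2.01% of all genes tested were higher and 2.31% lower. An unadjusted p under 0.05 was found for 3, beside 3052 of all 12873 genes tested. DESeq2 called 1, beside 1103 higher and 841 lower of 12860 genes. Without LLC1 sgPrrx1 replicate 3, Hoxd3 alone passed (adjusted p = 0.0381), at 59, 60 and 41 counts alone and 131, 98 and 60 in sgPrrx1, where 12.5% of all genes were higher and 14.2% lower.

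Whether a change differed between the lines was tested with interaction terms in the joint fit. For WT against alone 14 of 32 genes differed between the lines, 2 more positive in LLC1 and 12 more negative, where 13.7% of all genes tested were more positive and 15.8% more negative. With LLC1 sgPrrx1 replicate 3 left out it was 2 and 14 of 33, where 26.5% and 26.0% of all genes were. The 12 included Hoxb7, Hoxb9, Hoxb2, Hoxb4, Hoxd8 and Hoxd9, which were low or absent in 168FARN alone and high in LLC1 alone. Hoxc6 changed by 1.15 ± 0.22 SE more on the log2 scale in LLC1 than in 168FARN (adjusted p = 0.000954). For Hoxc8 and Hoxc10 the difference between the lines did not pass (adjusted p = 0.299 and 0.486 by edgeR), and for Hoxc9, at 0 in both lines alone, it could not be estimated. For sgPrrx1 against WT 9 of 32 differed, 7 more positive and 2 more negative in LLC1, where 11.0% of all genes were more positive and 8.25% more negative. Without that library it was 8 and 4 of 33, where 22.8% and 21.7% were.

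Genes that were at the floor in a line alone and detected in a coculture were counted separately, since their fitted folds depend on the prior count. In 168FARN 13 genes were at the floor alone, of which Hoxb7, Hoxc8, Hoxc9 and Hoxd8 were detected in WT and Hoxb7, Hoxb13 and Hoxc9 in sgPrrx1. In LLC1 13 were at the floor alone, of which Hoxc8, Hoxc9 and Hoxc10 were detected in WT and none in sgPrrx1. Both lines share Hoxc8 and Hoxc9, and Hoxc10 missed the rule in 168FARN through a single library with 4 counts. The sgPrrx1 level of the 4 genes in 168FARN was 9.25% of WT for Hoxd8, 10.7% for Hoxc8, 22.8% for Hoxc9 and 52.0% for Hoxb7, and that of Hoxd8 rests on the 12 counts of a single library. In LLC1 sgPrrx1 the counts of Hoxc8, Hoxc9 and Hoxc10 were at or under the floor of 3 per library, so no percentage is given.

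Most fibroblast markers tested in 168FARN were higher in WT than alone and lower in sgPrrx1 than in WT, and Twist2 went the other way. In 168FARN, 12 of 14 markers tested (of a list of 16) were higher in WT than alone and 13 were lower in sgPrrx1 than in WT, and the summed level of the list was 269 to 276 CPM alone, 1287 to 1371 in WT and 433.5 to 444 in sgPrrx1. Col1a2 had 5, 8 and 4 counts alone, 10763, 10438 and 6864 in WT and 697, 683 and 746 in sgPrrx1. At the floor were Postn, Thy1, Fap and Tnc alone, Fap in WT, and Lum, Thy1 and Fap in sgPrrx1. Thy1 had 29, 34 and 27 counts in WT and none in sgPrrx1, so by the floor of 3 counts per library no percentage is given for it. Over the 12 markers that were higher in WT, the sgPrrx1 level was at most 87.2% of WT (median 13.2%). It was 87.2% for Prrx1 and 74.2% for Pdgfra, which cells alone already had at 88.2 and 69.3 CPM, 46.7% for Dcn, 13.7% for Col3a1 and 6.45% for Col1a1. Of the 3 markers at the floor alone and detected in WT (Postn, Thy1 and Tnc), it was 0.101% for Postn and 3.63% for Tnc, beside 9.25% to 52.0% for the 4 Hox genes chosen by that rule. Dcn, with 12 to 16 counts alone, did not meet it. The part of fibroblast RNA in the Hox values was not tested.

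In LLC1 the list summed to 1888 to 1996 CPM alone, 1488 to 1518 in WT and 1735 to 1878 in sgPrrx1, most of it Col3a1 (1579 CPM alone). Of 13 markers tested, 5 were higher and 2 (Col3a1 and Pdgfrb) lower in WT than alone, and Col1a1, Col1a2 and Fbln2 were lower in sgPrrx1 than in WT. Without LLC1 sgPrrx1 replicate 3 these counts were 8 higher and 3 lower in WT than alone, and 2 higher and 3 lower in sgPrrx1 than in WT. Col1a2 had 0, 2 and 5 counts alone, 747, 646 and 611 in WT and 33, 19 and 15 in sgPrrx1, and WT was the highest group, as for Hoxc8, Hoxc9 and Hoxc10. Postn and Thy1 were at the floor in LLC1 alone, none was in WT, and Thy1 and Fap were in sgPrrx1, with Postn, Thy1 and Fap at no more than 12 counts in any LLC1 library. Of 3 leukocyte markers, Ptprc and Adgre1 had at most 3 counts in any library of either line. The other, Cd68, a lysosomal protein abundant in macrophages, had 696 to 4085 counts in every library. In 168FARN it was lower than alone in WT and in sgPrrx1 (log2 differences -0.70 and -0.77). In LLC1 it was higher than alone in both, by log2 1.18 in WT and 1.51 in sgPrrx1, and by 1.19 and 1.21 without LLC1 sgPrrx1 replicate 3. Cdh5, an endothelial cadherin, rose in 168FARN from 8, 27 and 12 counts alone to 423, 356 and 326 in WT and had 179, 224 and 250 in sgPrrx1. Pecam1, the other gene of the endothelial list, was tested in 168FARN and passed in no comparison. Its counts were 12, 8 and 9 alone, 9, 29 and 6 in WT and 14, 20 and 24 in sgPrrx1. Of the 9 epithelial genes, 3 were tested in 168FARN (Cldn4, Krt8 and Krt19), and all were higher in WT than alone. Between sgPrrx1 and WT, Krt8 was higher, Krt19 was lower and Cldn4 did not pass. Krt19, an epithelial keratin, had 0 counts in every 168FARN library alone and in sgPrrx1 and 224, 218 and 143 in WT. In LLC1 it had 0 counts alone, 8, 24 and 10 in WT and 0, 5 and 0 in sgPrrx1, and was tested and higher in WT only without LLC1 sgPrrx1 replicate 3 (adjusted p = 0.0174). Krt18, another epithelial keratin, had 3, 0 and 0 counts in LLC1 alone, 35, 22 and 30 in WT and 0, 4 and 0 in sgPrrx1, and was higher in WT than alone (adjusted p = 0.0282). Like Hoxc8, Hoxc9 and Hoxc10 in LLC1, both keratins were highest in WT and at 0 to 5 counts in the other groups. Whether these bear on the Hox values was not tested.

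Hox proteins bind DNA with cofactors of the TALE class (Pbx, Meis and Pknox). The counts of this list and of those that follow stand beside 33.4% higher and 30.7% lower of all genes tested in 168FARN WT against alone, 26.9% and 33.1% in 168FARN sgPrrx1 against WT, and 4.25% and 4.58% in LLC1 WT against alone (22.0% and 22.2% without LLC1 sgPrrx1 replicate 3). In 168FARN, 5 of 8 cofactor genes tested were higher in WT than alone and 1 lower, with a median log2 difference of 0.24, and 4 were lower in sgPrrx1 than in WT and none higher. Meis1 had 615, 841 and 672 counts alone, 1296, 1173 and 904 in WT and 748, 910 and 876 in sgPrrx1, and was higher in WT by log2 0.44 ± 0.05 SE (adjusted p = 1.68e-05). Meis2 was higher in WT by 0.35 and fell by 0.33 in sgPrrx1, and Pknox1 was higher by 0.32 and fell by 0.20. In LLC1 none of 9 passed in any of the 3 comparisons with all libraries. Without LLC1 sgPrrx1 replicate 3, Meis1 was higher and Meis3 and Pknox1 were lower in WT than alone (log2 differences 0.21, -0.20 and -0.37), Meis1 was higher in sgPrrx1 than alone, and Pknox1 was higher in sgPrrx1 than in WT.

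Polycomb proteins keep silent Hox genes repressed through methylation of histone H3 at lysine 27, and Trithorax proteins and H3K27 demethylases oppose them. Of 24 Polycomb genes in 168FARN, 7 were higher and 7 lower in WT than alone, and 4 were higher and 11 lower in sgPrrx1 than in WT, with medians of 0.05 and 0.02 on the log2 scale. Cbx2 was higher in WT by log2 0.57 ± 0.06 SE, and Bmi1 and Rbbp4 were lower (log2 differences -0.35 and -0.39). Ezh2, the H3K27 methyltransferase, was higher by 0.18. In LLC1, 4 Polycomb genes were lower in WT than alone, led by Cbx7 at -0.79 ± 0.07 SE (adjusted p = 0.00139), and without LLC1 sgPrrx1 replicate 3 the counts were 6 higher, Ezh2 and Bmi1 among them, and 9 lower. Of 16 Trithorax and demethylase genes in 168FARN, 4 were higher and 7 lower in WT, with Kdm6b higher by log2 0.46. In LLC1 none of 16 passed with all libraries, and without LLC1 sgPrrx1 replicate 3, 3 were higher in WT than alone (Ash2l, Dpy30 and Wdr5) and 3 lower (Men1, Mllt1 and Kdm6b, the last at log2 -0.36).

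Genes that border the clusters or regulate them gave 11 tested of 20 in each line. In 168FARN 4 were higher and 6 lower in WT than alone, and 6 were higher and 4 lower in sgPrrx1 than in WT. Calcoco1, which lies beside HOXC, was higher in 168FARN WT by log2 0.50 ± 0.05 SE and fell by 0.55 in sgPrrx1, and in LLC1 WT it differed from alone by -0.50 ± 0.09 SE (adjusted p = 0.0141). It was the only one of the 11 that passed there, and without LLC1 sgPrrx1 replicate 3 the counts were 4 higher and 2 lower, with Calcoco1 at -0.49 on the log2 scale. Of 15 noncoding genes of the clusters, 2 were tested in 168FARN and 4 in LLC1, and none passed in any comparison. Hotair, transcribed opposite to HOXC, had at most 13 counts in any library. Hotairm1, a noncoding RNA of HOXA, had 66 to 103 counts in each 168FARN library and 101 to 201 in each LLC1 library. The genes of microRNAs in the clusters had at most 3 counts, in libraries made for longer RNA.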

How the data were processed

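RNA sequencing of sorted cancer cells gave 18 libraries, 9 per line. The authors deposited 1 table of raw read counts per gene and line, made per the submitters' processing notes with Trimmomatic, STAR and HTSeq (mm10). The methods describe such a pipeline for fibroblasts and a batch correction for other data, and whether the latter was applied to these counts could not be settled from them. TruSeq v2 does not mark strand. No column was left unused. Groups came from sample titles.

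Counts were tested with edgeR 4.0.16 (R 4.3.3): filterByExpr with a minimum count of 10, TMM scaling, the quasi-likelihood test (two-sided) and Benjamini-Hochberg adjustment over all genes tested, at a threshold of 0.05. Each line was fitted on its 9 libraries, and the lines were compared in a fit of all 18. Comparisons within a line share libraries. CPM used TMM-scaled library sizes. Fold bounds put groups at 0 to a floor of 3 counts per library, and ratios with 1 to 3 counts carry 95% counting intervals. The scripts were tested on simulated data. Alternatives used DESeq2 1.42.0, limma 3.58.1 (voom), other scalings and filters, a replicate block and leaving out each library. Sequences and coordinates are RefSeq's (GRCm38.p6). Python 3.11.15 was used for summaries.

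Every member may be named, but 1 is not reported here by itself and is left out of the plots of single genes, while counts and sums over all members hold it. Values per library were given for members past the threshold or present in coculture and not alone, and from other lists at most 3 genes per list and line plus fibroblast markers were intended. Cbx2, Ezh2, Kdm6b and Hotairm1 and the microRNA genes were named after their values were seen, as were Krt18, Krt19, Cldn4, Cdh5, Pecam1 and Cd68 and the genes of other lists that passed in LLC1 without sgPrrx1 replicate 3. The members and lists were chosen with earlier results of these data known.

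Replicate numbers are shared by the groups. Deviations of same-numbered libraries correlated above 0.1 in all 3 pairs only between LLC1 alone and LLC1 sgPrrx1 (r = 0.208, 0.442 and 0.634), where the fit with the replicate block called 0 Hox genes, as did the fit without it.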

Additional observations from a re-analysis of the deposited data

Results flagged for a closer look

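The change between 2 groups differed between the lines, by an interaction term in the edgeR fit of all 18 libraries, for genes that include these. Values are log2 differences, LLC1 minus 168FARN, and those of genes with a group at 0 to 3 counts (Hoxb7, Hoxc4, Hoxc10 and Hoxd8) depend on the prior count.

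For WT against alone the value was -0.89 for Hoxa2, -0.61 for Hoxa5, -2.05 for Hoxa9 and -1.73 for Hoxa10. In HOXB it was -2.86 for Hoxb2, -2.74 for Hoxb4, -5.06 for Hoxb7, -1.65 for Hoxb8 and -3.24 for Hoxb9. It was 4.94 for Hoxc4 and 1.15 for Hoxc6. In HOXD it was -8.71 for Hoxd8 and -2.80 for Hoxd9.

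For sgPrrx1 against WT the value was 1.01 for Hoxa4 and 0.34 for Hoxa5. It was 2.08 for Hoxb2, 1.50 for Hoxb4 and 0.83 for Hoxb7, and 3.21 for Hoxd8 and 2.84 for Hoxd9. It was negative for Hoxc6 (-0.91) and Hoxc10 (-4.74).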

How the results depend on the processing

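In 168FARN, 18 of 23 Hox genes called between WT and alone, 8 of 12 between sgPrrx1 and alone and 9 of 17 between sgPrrx1 and WT were called in every alternative that tested them, as were 23 of 24 between the lines alone. Requiring at least 10 counts in every library removes the genes at 0 in a group, and left 9, 4 and 5 calls in these 168FARN comparisons, 1 in LLC1 WT against alone, 9 between the lines alone, and 5 and 2 for the line differences in WT against alone and sgPrrx1 against WT. In LLC1 WT against alone, 5 calls became 15 with voom, 10 with only the groups compared and 1 to 11 when a library was left out, with 11 without sgPrrx1 replicate 3 and 1 or 2 without any 1 library of WT or alone. Over all genes tested in this comparison, voom called 3582 higher and 3967 lower of 12873. The fit of only the groups compared called 2560 higher and 2607 lower of 12691. LLC1 sgPrrx1 against alone gave 1 with DESeq2, 10 with voom and 0 to 1 on leaving out a library, where voom called 2843 higher and 3340 lower of all 12873 genes. LLC1 sgPrrx1 against WT gave 5, 11 and 0 to 5, where voom called 2340 higher and 2341 lower of all 12873 genes. The line difference in sgPrrx1 against WT gave 16 with voom and 5 (without 168FARN WT replicate 1) to 12 (without LLC1 sgPrrx1 replicate 3). For this difference voom called 4409 more positive and 3477 more negative of all 14369 genes. Genes at the floor alone and detected in coculture became 2 in 168FARN WT and 1 in 168FARN sgPrrx1 with at most 1 count alone, and 1 in 168FARN sgPrrx1 and 1 in LLC1 WT with at least 20 counts. Hoxb7 in LLC1 sgPrrx1 against alone turned from 0.02 to -0.19 with voom. The causes were not tested.

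With the replicate block, 22, 11 and 17 Hox genes were called in 168FARN and 2, 0 and 0 in LLC1 (WT against alone, sgPrrx1 against alone, sgPrrx1 against WT), and 14 and 8 for the line differences. Apart from LLC1 alone with sgPrrx1, the libraries share only a number.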
